A study of Lepidium sativum with 30 samples.

Results

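The 200 transcript contigs described here were high in dry seeds of Lepidium sativum (garden cress), low after 6 h of imbibition and high again in control seeds at 12 h. They were chosen from 48306 assembled contigs. Abundance was expressed as CPM, in which the counts of a library sum to 1000000, and 0.5 CPM was added to each group mean. A contig had to reach a mean of 10 CPM in dry seeds and in 12 h controls, to lie outside the 100 most abundant contigs of dry seeds, and not to be over 4-fold higher in the fifth 18 h library than in the mean of the other 4. This left 9475 contigs. They were ranked by the smaller of 2 ratios, dry seed over 6 h control and 12 h control over 6 h control, and the first 200 were taken. The 3 groups that chose the contigs therefore show this shape by construction, and their values are given only as a description.

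Whole seeds of one genotype (FR14, "Keimsprossen", Juliwa) were used throughout, and the labels name no mutation or transgene. The groups were dry seeds (DS), control seeds imbibed for 6 h (C6) or 12 h (C12), and seeds imbibed for 6 h (M6), 12 h (M12) or 18 h (M18) with 0.5 mM myrigalone A (MyA). MyA is a dihydrochalcone from the fruits of Myrica gale that inhibits germination. Each group had 5 libraries of poly(A) RNA, and the totals of the 30 libraries ranged from 20218374 to 33609057 counts. The study's captions call the libraries of a group biological replicates. Whether they came from separate batches of seeds is not given by the labels. The spread behind each p-value is that among libraries. The fifth M18 library (M18-5) stood apart and was left out of all tests and group means, leaving 4 M18 libraries.

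A dry seed holds messenger RNA stored during maturation on the mother plant. On water uptake part of this stored RNA is degraded while new transcription begins, so that abundance in the early hours reflects both. In L. sativum the testa ruptures first, and the radicle later breaks the endosperm that surrounds it. The samplings followed this order, with 6 h near the onset of testa rupture, 12 h near that of endosperm rupture in control seeds and 18 h near that of endosperm rupture with MyA. Seeds are mixed tissues, so fewer cells of a type and less RNA per cell cannot be told apart in these libraries. Levels were taken for only 3 contigs annotated as seed maturation genes, whereas the keyword group for seed maturation held 9 contigs. Levels for the whole of that group are not given here. Among the 3, the seed storage vacuole aquaporin TIP3;1 (TC_62472) had 39.9 ± 14.3 CPM in DS and 1.68 ± 0.70 CPM in C12 (mean ± SD, n = 5 each). LEA18 (TC_11354), a late embryogenesis abundant protein, had 102 ± 45.9 CPM in DS and 6.28 ± 3.09 CPM in C12. LEA2 (TC_44341) did not share this pattern, being low throughout, with 0.196 ± 0.045 CPM in DS, 0.554 ± 0.206 CPM in C6 and 0.169 ± 0.044 CPM in C12.

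The contigs are named here mostly by their identifiers. Of 450 contigs read here from the study's annotated lists and primer table as paired with an Arabidopsis gene, 16 met the conditions of the ranking. Of these, 0 were among the 200. The study's text reports more contigs on its annotated lists than the 450 read here. The study had selected the contigs of its annotated lists as higher or lower with MyA, in the same libraries. The annotated contig that ranked highest stood at position 409. Consequently 0 members fell in any of the 10 keyword groups examined, which covered glutathione transferases, glycosyltransferases, cytochrome P450 enzymes, transporters, transcription factors, ribosomal proteins, plastid proteins, seed maturation proteins, histones and chaperones. This says only that the annotation used here does not reach these contigs. A single member, TC_71256, is named on one of the study's supplementary graphs, as catalase 3 (CAT3). Catalases break down hydrogen peroxide, largely in peroxisomes. It was singled out after its values were seen.

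Together the 200 contigs held 1.25% to 1.52% of all counts in the 5 DS libraries. In the 5 C6 libraries they held 0.493% to 0.637%. In the 5 C12 libraries they held 1.29% to 1.36%. The C6 libraries thus lay below every DS and C12 library, which is the shape the ranking sought. The MyA-treated libraries, which did not enter the ranking, ran from 0.567% to 0.702% in M6, from 1.21% to 1.33% in M12 and from 1.56% to 1.64% in the 4 M18 libraries. The M18 libraries had entered the 4-fold limit that preceded the ranking. The 3 MyA time points did not overlap with each other. M18-5 held 1.29%, below the other M18 libraries and within the range of M12.

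**Figure D1:**
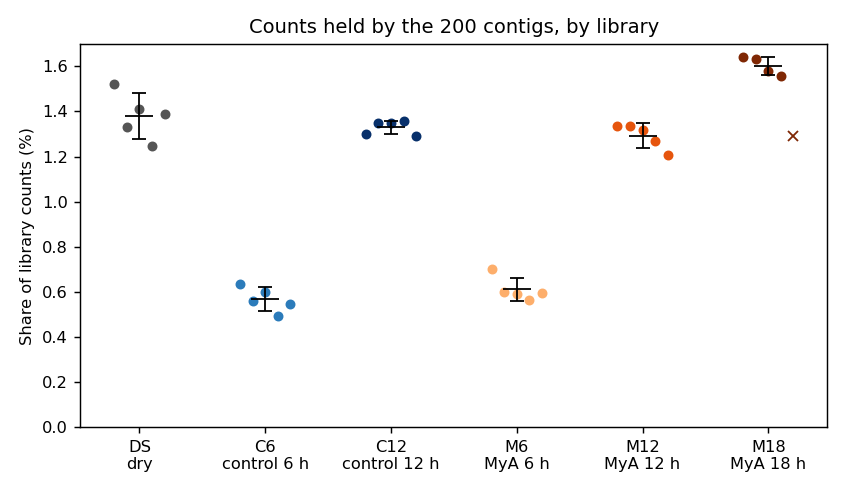
Share of each library's counts held by the 200 contigs (y axis, percent) in the 6 groups (x axis). Points are libraries, the bar with whiskers is the mean ± SD and the cross is M18-5, left out of mean and SD. C6 (0.493% to 0.637%) and M6 (0.567% to 0.702%) lie below all other libraries.

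Among the members the smaller of the 2 ratios had a median of 2.01 and ran from 1.81 to 4.01. Both ratios reached 2 in 106 members, 2.5 in 21 and 3 in 4. DS over C6 had a median of 2.23 (1.82 to 5.99), and C12 over C6 had a median of 2.13 (1.81 to 7.88). The limit fell in a continuous series of values. The last contig taken, TC_39768, had a smaller ratio of 1.8098 and the first not taken, TC_43023, had 1.8092. Most members were of moderate abundance, with C6 means below 20 CPM in 120 members, from 20 to 100 CPM in 70 and above 100 CPM in 10. The most abundant, TC_37688, had means of 796 CPM in DS, 396 CPM in C6 and 766 CPM in C12. A C6 library held a median of 472 counts per member, with a lowest value of 12 counts.

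In 193 of 200 every DS library was above every C6 library, against 22.1% of the 22155 contigs tested, and in 191 every C12 library was above every C6 library, against 28.3%. These counts follow from the ranking and nothing is read from them. The 12 h level stood within 2-fold of the dry seed level in 186 members, above it in 93 and below it in 107.

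The choice of members depended on the scale. In CPM the median log2 ratio of DS over C6 across the 22155 tested contigs was -0.52, and with scaling by trimmed means (TMM) it was -0.14. For C12 over C6 the corresponding medians were 0.12 and -0.01. Under the same ranking 101 of the 200 were still taken with TMM-scaled CPM, and 95 with relative log expression (RLE) scaling. All 200 kept a DS mean and a C12 mean above the C6 mean under both scalings, and the median DS over C6 of the members was 2.96 with TMM scaling. Leaving out 1 library of DS, C6 or C12 at a time kept 174 to 196 members, fewest without C6-1 or without C6-5. The summed level of 3 contigs used as RT-qPCR references was also lower at 6 h. It was 387 ± 23.4 CPM in DS, 292 ± 8.68 CPM in C6 and 440 ± 20.3 CPM in C12 (mean ± SD). The ranking was not repeated with scaling by these 3 contigs, which would make the members' dip smaller.

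The highest-ranked contig was TC_66120. Its level was 661, 495, 439, 368 and 742 CPM in the DS libraries. It was 130, 122, 92.8, 102 and 168 CPM in the C6 libraries. It was 444, 577, 454, 473 and 526 CPM in the C12 libraries. The C6 libraries lay well below both other groups, and DS and C12 overlapped. In the M6 libraries TC_66120 was at 114, 106, 108, 92.7 and 113 CPM. In the M12 libraries it was at 517, 437, 375, 362 and 181 CPM. Every M12 library was above every M6 library, and M12-5 was the low one of its group. The rise from M6 to M12 was 1.81 ± 0.23 on the log2 scale (estimate ± SE, edgeR quasi-likelihood test, adjusted p = 3.84e-05). The 4 M18 libraries, at 258, 381, 281 and 291 CPM, lay within the spread of M12, and the M18 to M12 difference of -0.27 ± 0.27 did not pass the same test (adjusted p = 0.517).

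TC_26832, ranked second, was less abundant and more even. It had 49.3, 42.3, 39.0, 34.5 and 41.2 CPM in DS. It had 10.9, 15.4, 13.8, 11.0 and 10.6 CPM in C6. It had 42.6, 41.4, 44.99, 44.2 and 40.4 CPM in C12. All 5 C6 libraries were low, and C12 lay inside the DS range. With MyA it had 15.4, 15.4, 15.6, 13.7 and 10.3 CPM in M6 and 50.01, 56.5, 49.0, 36.6 and 34.6 CPM in M12. Its M12 and M6 libraries did not overlap, with a log2 rise of 1.69 ± 0.16 (edgeR, adjusted p = 5.05e-06). M18 libraries, at 60.9, 54.5, 47.1 and 45.1 CPM, overlapped with M12, and the difference of 0.24 ± 0.18 did not pass (edgeR, adjusted p = 0.370).

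CAT3 (TC_71256) ranked 157th. Its DS libraries had 54.1, 49.0, 60.6, 56.7 and 71.9 CPM. Its C6 libraries had 36.5, 22.5, 31.8, 24.8 and 34.9 CPM. Its C12 libraries had 89.9, 61.2, 53.9, 44.0 and 37.9 CPM. C6 lay below DS and, by a small margin, below C12, which was widely spread. In M6 the levels were 25.7, 19.0, 26.1, 16.1 and 43.1 CPM, and in M12 they were 55.6, 54.2, 40.6, 35.2 and 49.7 CPM. M6-5 overlapped with M12, and the other 4 M6 libraries were below all of M12. The rise from M6 to M12 was 0.84 ± 0.24 on the log2 scale (edgeR, adjusted p = 0.00892), under the 2-fold limit, and it did not pass the adjusted p when libraries were scaled by 3 reference contigs (0.39, adjusted p = 0.150). In M18 the levels were 143, 90.1, 124 and 152 CPM, above every M12 library and every other library of the series. The rise from M12 to M18 was 2.78-fold, or 1.47 ± 0.16 on the log2 scale (edgeR, adjusted p = 0.00140). M18-5, not in that test, had 59.9 CPM. The catalases are a small family with similar sequences, and how reads shared between related contigs were assigned is not given in the sources used here.

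**Figure D2:**
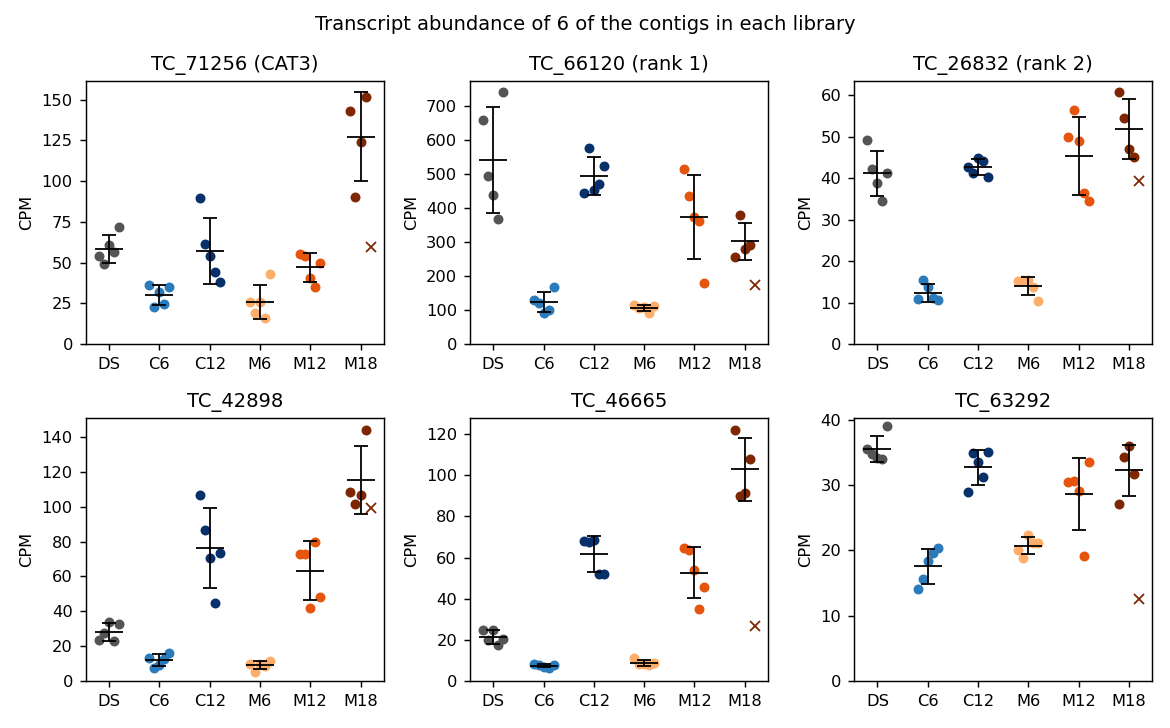
Abundance (y axis, CPM, from 0) of 6 contigs in each library by group (x axis). Points are libraries, the bar with whiskers is the mean ± SD and the cross is M18-5, left out of mean and SD. TC_71256 (CAT3) is highest in M18 (90.1 to 152 CPM), whereas TC_66120 is highest in DS (368 to 742 CPM).

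The comparison of M12 with M6 asked whether the increase between 6 h and 12 h also took place in MyA-treated seeds, in libraries that the ranking did not use. All 200 members passed the filter on low counts, and all 200 had a positive log2 change, with a median of 1.01 (quartiles 0.84 and 1.32, range 0.45 to 2.82). The median over all 22155 tested contigs was 0.05. An adjusted p under 0.05 with a higher level in M12 was found for 197 members (98.5%), against 37.9% of all tested contigs. A change of over 2-fold was also required for a call, and 103 members (51.5%) were called higher, against 19.1% of all tested contigs. 0 members were called lower, against 14.7%, with edgeR and with DESeq2 alike. 0 members were lower at an adjusted p under 0.05, against 33.1%, or at an unadjusted p under 0.05. Every M12 library was above every M6 library in 169 members (84.5%), against 22.6% of all tested contigs. The members shared their choice by C6 and C12 levels, which are the control values of the same time points.

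The 2-fold limit lay near the members' median, so the count of calls moved with the scale: 103 with TMM, 91 with DESeq2 and 35 when libraries were scaled by 3 contigs used as RT-qPCR references. Those reference contigs were themselves higher at 12 h, with a summed level of 309 ± 6.48 CPM in M6 and 423 ± 58.2 CPM in M12 (SD, n = 5 each), which moved the median of all tested contigs by -0.43. Relative to that median the members' median was 0.96 higher on either scale. The share of 19.1% of all tested contigs called higher holds for TMM only, so the 35 members cannot be set against it. With reference scaling 34.3% of all calls were higher, in place of 56.6%. At the adjusted p alone, that scaling gave 156 members and 4912 of 22155 contigs higher. DESeq2 gave 196 and 8345, and TMM gave 197 and 8404.

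**Figure D3:**
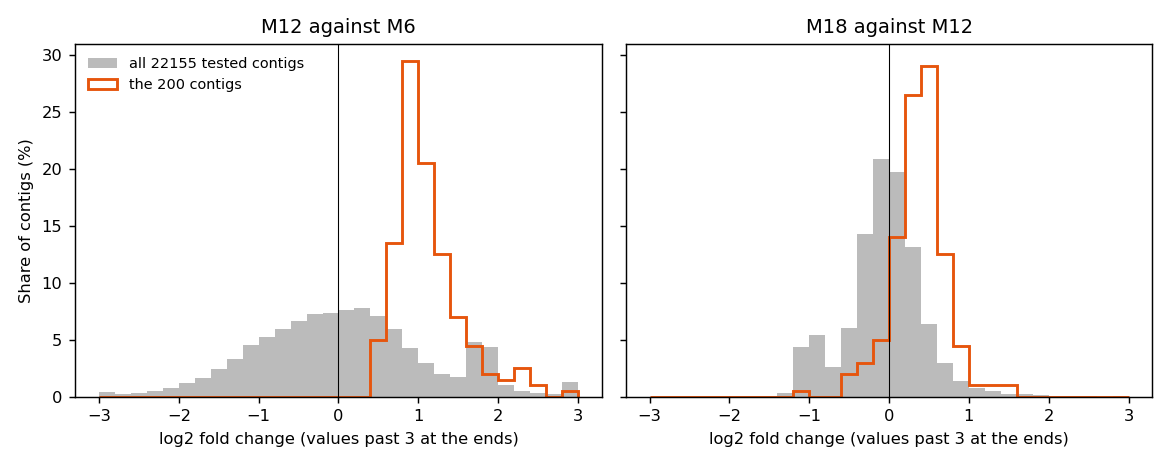
Distribution of log2 fold changes (x axis) as a share of contigs (y axis, percent) for M12 against M6 (left) and M18 against M12 (right). Grey bars are all 22155 tested contigs and the orange outline is the 200 contigs. The outline lies right of 0 on the left panel (median 1.01) and mostly right of 0 on the right panel (median 0.39).

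The increase from M6 to M12 was largest in TC_42898 and TC_46665. Control seeds also rose, with C12 over C6 at 6.26 in TC_42898 and 7.88 in TC_46665, values that the ranking used. TC_42898 had 9.71, 5.21, 9.72, 8.37 and 11.4 CPM in M6. It had 73.2, 72.9, 41.8, 79.7 and 48.2 CPM in M12. The groups were far apart, at 7.09-fold or 2.82 ± 0.26 on the log2 scale (edgeR, adjusted p = 4.52e-06). In M18 it had 109, 102, 107 and 144 CPM, all above M12, with a log2 rise of 0.89 ± 0.21 (edgeR, adjusted p = 0.0286). That last change, under the 2-fold limit, did not pass the adjusted p on leaving out M12-2, M12-3 or any 1 of the 4 M18 libraries, at values from 0.0507 to 0.0807.

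TC_46665 had 11.1, 8.04, 8.23, 7.70 and 8.48 CPM in M6. It had 64.9, 63.6, 54.1, 35.0 and 45.8 CPM in M12, and 122, 89.7, 91.3 and 108 CPM in M18. The 3 time points did not overlap. The log2 rise was 2.59 ± 0.17 from M6 to M12 (edgeR, adjusted p = 8.20e-07) and 1.01 ± 0.18 from M12 to M18 (edgeR, adjusted p = 0.00875). The latter did not pass with M18-5 included (0.86, adjusted p = 0.0884). For both contigs C12 was also far above DS, at 44.6 to 107 CPM against 22.9 to 33.9 CPM in TC_42898 and at 52.0 to 68.8 CPM against 17.3 to 24.9 CPM in TC_46665.

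At the other end stood TC_63292 and TC_200. TC_63292 had 20.05, 18.8, 22.3, 21.2 and 21.2 CPM in M6 and 30.5, 30.6, 29.2, 19.2 and 33.5 CPM in M12. Only M12-4 overlapped with M6, and the log2 rise was 0.45 ± 0.12 (edgeR, adjusted p = 0.00635), and with scaling by the reference contigs it was 0.00 (adjusted p = 0.987). TC_200 was the most uneven member in M6 (coefficient of variation 50.8%), at 15.1, 54.2, 72.2, 37.6 and 33.7 CPM, against 62.9, 44.4, 78.8, 51.2 and 53.2 CPM in M12. The groups overlapped, and the difference of 0.45 ± 0.33 did not pass (edgeR, adjusted p = 0.236). In C6 the same contig was at 0.379 CPM in C6-5, the 12 counts given above as the lowest value, and at 24.7 to 42.8 CPM in the other 4 libraries.

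Besides TC_200, 2 members did not pass an adjusted p of 0.05 for M12 against M6. They were TC_44552 (0.46 ± 0.20, edgeR, adjusted p = 0.0590) and TC_9503 (1.27 ± 0.53, edgeR, adjusted p = 0.0501), and both were singled out after their values were seen. TC_9503 had 1089 CPM in M12-4 and 147 to 250 CPM in the other 4 M12 libraries.

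The comparison of M18 with M12 asked what followed in MyA-treated seeds as they approached endosperm rupture. It is not fully independent of the choice, since the 4-fold limit removed contigs that were low in the tested M18 libraries relative to M18-5. In 131 of 200 members the M18 mean was the highest of the 6 group means, and in 59 it was the DS mean. These counts are a description, as the ranking chose C6 low and DS and C12 high. They were not made over all tested contigs. The log2 change from M12 to M18 was positive in 179 members, with a median of 0.39 (quartiles 0.21 and 0.55, range -1.13 to 1.52). The median over all tested contigs was -0.04. An adjusted p under 0.05 with a higher level in M18 was found for 87 members (43.5%), against 8.07% of all tested contigs, and all 87 had also passed with a higher level in M12 than in M6. Over 2-fold changes were called in 6 members (3%), against 1.97% of all tested contigs. Every M18 library was above every M12 library in 102 members, against 10% of all tested contigs. The count of 87 was not stable, and neither was the matching count of 1789 over all tested contigs, given here in brackets. It was 31 (848) without M18-1, 41 (1039) without M18-2, 54 (1103) without M18-4 and 58 (1150) without M12-2. It was 42 (980) with M18-5 included and 56 (1458) with no filter on low counts, where more contigs were tested. It was 26 (754) with scaling by the 3 reference contigs and 14 (556) with the replicate number as a block. The count of 6 was 3 without M18-1, and leaving out 1 library at a time gave 304 to 466 of all tested contigs called higher.

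The 6 members called higher included CAT3 and TC_46665, and 5 of them had also been called higher in M12 against M6. CAT3 was the one that had not. The largest change was in TC_43698, with 29.2, 31.8, 27.8, 24.4 and 19.5 CPM in M12 and 91.0, 72.1, 54.8 and 78.2 CPM in M18. The groups were widely separated, at 1.52 ± 0.19 on the log2 scale (edgeR, adjusted p = 0.00242). 0 members were called lower with edgeR, against 0.357% of all tested contigs, 3 were lower at an unadjusted p under 0.05, and DESeq2 called 1 lower. The lowest change was in TC_40102, at 26.8, 40.5, 37.8, 51.4 and 23.1 CPM in M12 and 9.30, 25.2, 18.26 and 12.05 CPM in M18. M18-2 overlapped with M12, and the difference of -1.13 ± 0.35 had an adjusted p of 0.0680 with edgeR and 0.00851 with DESeq2. TC_43698 and TC_40102 were singled out after their values were seen.

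The members divided by whether the 12 h control exceeded the dry seed. The 93 members with C12 above DS had median group means of 30.1 CPM in DS, 13.1 in C6 and 40.3 in C12. With MyA their medians were 14.1 CPM in M6, 37.0 in M12 and 52.1 in M18. These members were at or above the dry seed level late in the series, with an M18 over DS ratio above 1 in 89 of 93 and a median of 1.5. The 107 members with C12 below DS began higher, at a median of 48.1 CPM in DS, and had 17.6 CPM in C6 and 36.6 in C12. Their medians with MyA were 19.8 CPM in M6, 34.6 in M12 and 42.7 in M18. Here M18 exceeded DS in 48 of 107, with a median ratio of 0.92. The M12 over M6 ratio had a median of 2.35 in the first set and 1.86 in the second, and it was above 1 in all members of both. As DS and C12 defined the sets, these differences are a description.

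**Figure D4:**
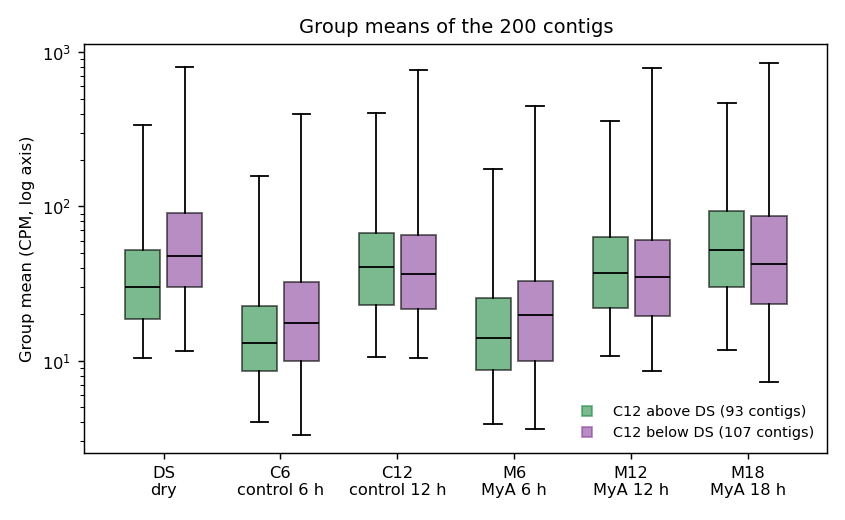
Group means (y axis, CPM, log axis) of the members with C12 above DS (green, 93 contigs) and below DS (purple, 107 contigs) in the 6 groups (x axis). Lines in the boxes are medians, boxes span the quartiles, and whiskers reach the lowest and highest contig. The medians at 18 h with MyA are 52.1 and 42.7 CPM.

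The changes were compared across classes of abundance, with no test. The 62 members under 10 CPM in C6 had a median log2 change of 1.29 from M6 to M12, and the classes of 10 to 20, 20 to 50 and above 50 CPM had 0.97, 0.99 and 0.95. The medians from M12 to M18 were 0.43, 0.46, 0.36 and 0.26 in the same order, so the values were lowest in the most abundant class in both comparisons.

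The members' levels with MyA are set beside the controls of the same hour as a description only. M6 over C6 had a median ratio of 1.03 (0.68 to 1.61), and 3 members had every M6 library above every C6 library, against 0.546% of all tested contigs. M12 over C12 had a median of 0.96 (0.76 to 1.95), and 0 members had every M12 library above every C12 library or every M12 library below, against 0.492% and 1.24% of all tested contigs. The ranking chose C6 low and C12 high, which by itself raises M6 over C6 and lowers M12 over C12. No test is given, and these ratios and counts cannot show whether MyA changed the members. M18 over C12, which differ in time as well as in treatment, had a median of 1.22 (0.43 to 2.95). Every M18 library was above every C12 library in 80 members, against 9.66% of all tested contigs, and below in 5, against 15.4%. Among the 9275 contigs that met the conditions and ranked lower, the medians of the same 3 ratios were 0.98, 0.94 and 0.90. The means of C6 and M6 were the 2 lowest of the 6 in 199 members. The exception was a member with its lowest mean in M18.

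Within groups, many members shared the same highest or lowest library. This was counted for the members only, and whether it holds over all tested contigs was not tested. The library numbered 4 was the lowest of its group of 5 for 95 members in DS, 112 in C6, 90 in M6 and 117 in M12. Library 1 was the highest for 73, 92, 101 and 62 members in the same groups. In C12 the fourth library was the highest for 72 members and the lowest for 58. The 72 had a median log2 deviation from the group mean of 0.32 in C6-1, 0.33 in M6-1 and -0.37 in C6-4, and the 58 had 0.05, 0.04 and -0.06. Over all 200 members the median deviation was between -0.22 and 0.17 in the 29 libraries used, and it was -0.93 in M18-5. The differences from 6 h to 12 h, at a median of 1.01 on the log2 scale, exceeded these deviations. With both libraries numbered 4 left out, 81 members were called higher in M12 than in M6, and 190 had every M12 library above every M6 library. The latter count cannot fall when libraries are left out, and no share over all tested contigs is given beside it. At the adjusted p alone, 192 members and 7967 of all tested contigs were higher in M12 with these libraries left out.

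**Figure D5:**
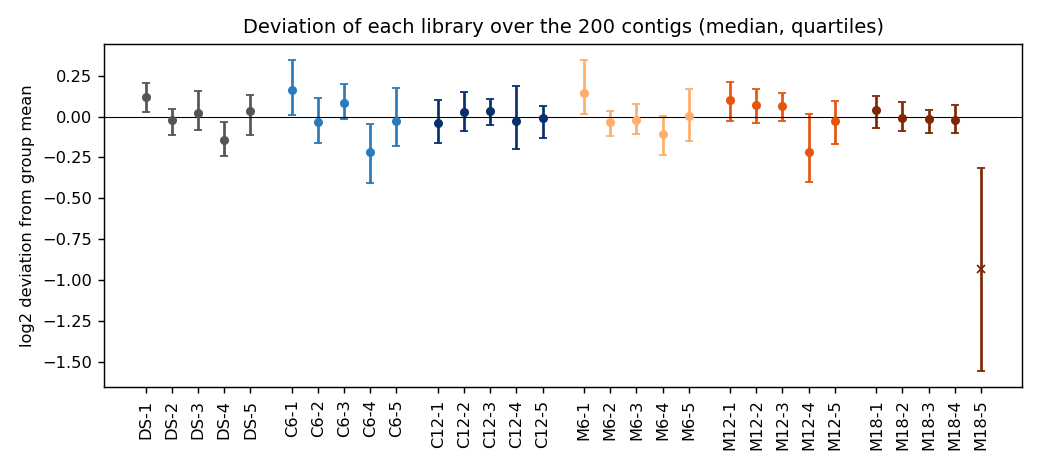
Deviation of each library (x axis) from its group mean on the log2 scale (y axis), as the median over the 200 contigs with quartiles. Libraries numbered 4 lie low in DS, C6, M6 and M12, and M18-5 (cross, left out of the group mean) lies at -0.93.

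The coefficient of variation of a member between libraries of a group had a median of 12.42% in DS, 17.5% in C6, 12.7% in C12, 14.4% in M6, 15.4% in M12 and 9.02% in M18. The most variable member in any group was TC_9503 in M12, at 104%.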

How the data were processed

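The authors isolated RNA from whole seeds, prepared directional poly(A) libraries, sequenced paired ends, assembled a transcriptome de novo, mapped the reads with BWA and counted them with HTSeq (versions not given in the sources used here). The deposited table holds raw whole-number counts for 48306 contigs in 30 libraries; 341 identifiers carry a suffix "_sus" whose meaning is not given, and none is a member. No genome coordinates or contig sequences were used here.

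Groups followed the labels. Columns were matched to libraries by title. The members and the keyword lists were chosen with earlier results of these data known. CPM used library totals. Tests used edgeR 4.0.16 in R 4.3.3: TMM factors, contigs with 5 CPM (102 to 169 counts) in at least 4 of 29 libraries (22155 contigs), a quasi-likelihood fit of the 2 groups compared, Benjamini-Hochberg adjustment over all tested contigs, and calls at adjusted p under 0.05 with over 2-fold change. Standard errors were the log2 change divided by the square root of its F value. Because DS, C6 and C12 chose the members, only M12 against M6 and M18 against M12 were tested. All M18 libraries entered the choice through the 4-fold limit, which set M18-5 against the mean of the other 4. M18-5 was left out of tests as in the study's methods. The fit was also run on simulated counts with few changed contigs, equally up and down, and its outcome is not given here. Far more contigs changed in M12 against M6, so that run cannot speak to the scaling there. DESeq2 1.42.0, other scalings and filters, a replicate block and leaving out each library were alternatives.

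Named contigs were the 2 ranked highest and those on either side of the limit. The 2 with the largest and the 2 with the smallest change from M6 to M12 were also named. Members paired with an Arabidopsis gene in the annotated lists or primer table, as read here, would have been named, but there were none. CAT3 was named from a supplementary graph after its values were seen. Others are said to have been singled out afterwards. Contigs of one gene or of related genes may share reads.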

Additional observations from a re-analysis of the deposited data

Results flagged for a closer look

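In 84 sets of libraries (the share of counts and 13 named contigs in 6 groups), 8 had a highest or lowest library far from the others by Dixon's criterion, which chance meets in about 1 set in 20. The members held 0.702% of the counts of M6-1 against 0.567% to 0.601% in the other M6 libraries. They held 1.29% in M18-5 against 1.56% to 1.64% in the other M18 libraries. M6-1 was also the high library for TC_46665, at 11.1 CPM against 7.70 to 8.48 CPM, and for TC_43023, the first contig not taken, at 53.4 CPM against 26.7 to 34.2 CPM. TC_39768, the last contig taken, was at 9.22 CPM in M6-5 against 7.32 to 7.74 CPM. TC_42898 was at 144 CPM in M18-4, with the other M18 libraries, M18-5 included, at 99.4 to 109 CPM. TC_9503 was at 1089 CPM in M12-4 against 147 to 250 CPM, and at 352 CPM in C12-4 against 141 to 189 CPM. Without M12-4 its log2 change from M6 to M12 was 0.23 in place of 1.27. The part of these libraries in the members' calls was tested only by leaving them out. Without M6-1, 106 members were called higher in M12 than in M6, and without M12-4, 89. At the adjusted p alone, 196 members and 7852 of all tested contigs were higher without M6-1. Without M12-4 these counts were 194 and 8168, and with all libraries they were 197 and 8404.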

How the results depend on the processing

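The members' median change from M6 to M12 stayed between 0.91 and 1.01 under every alternative to the scaling, filter, block and fit except scaling by the 3 reference contigs, and it stayed positive in all. Scaling by reference contigs gave 35 members called higher from M6 to M12 at a median of 0.57, and 5915 contigs called lower. It gave 3 members higher from M12 to M18 at a median of 0.23, and 141 contigs lower. At the adjusted p alone it gave 26 members and 754 of all tested contigs higher from M12 to M18. This scaling shifted the median of all contigs by -0.43 and -0.16, and it left 34.3% and 67.7% of calls as higher in place of 56.6% and 84.7%. Without the fold threshold, 197 and 87 members were higher, 8404 and 1789 contigs were higher and 7344 and 664 contigs were lower. The filter on 5 counts gave 9148 and 768 contigs called higher and 7396 lower from M6 to M12; no filter gave 9383, 713 and 7435. From M12 to M18, 1 member (TC_40102) was called lower by DESeq2 and in one fit over all 6 groups, with 119 and 157 contigs lower, and 52 contigs were lower with M18-5 included.

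Leaving out each library in turn gave 85 to 110 members called higher and 0 lower from M6 to M12, at medians of 0.95 to 1.05, with 4005 to 4272 contigs higher and 3158 to 3796 lower. From M12 to M18 it gave 3 to 7 members higher (3 without M18-1) and 0 to 1 lower (1 without M12-5 or M18-2), at medians of 0.35 to 0.42, with 304 to 466 contigs higher and 40 to 182 lower. It gave 169 to 190 members with every M12 library above every M6 library, a count that cannot fall when a library is left out. The ranking took 101 members with TMM-scaled and 95 with RLE-scaled CPM, 148 to 163 with a higher minimum, a larger offset or group medians, and 192 when the minimum was applied after the offset (chosen after seeing the data, as was leaving out the libraries numbered 4). For single named contigs, 429 of 493 repeats stayed on the same side of the adjusted p of 0.05, 51 passed it no longer, 13 passed it newly and none reversed.

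The replicate numbers were not treated as pairs: over all tested contigs, same-numbered deviations correlated from -0.20 to 0.62 between M6 and M12 (over 0.1 in 2 of 5 pairs) and from -0.45 to 0.36 between M12 and M18 (2 of 4 pairs). Over the members alone, libraries numbered 4 were often the lowest and those numbered 1 the highest in DS, C6, M6 and M12. With the replicate block, 105 members were called higher from M6 to M12 and 4 from M12 to M18, where 38 contigs were lower. At the adjusted p alone, 195 members and 8278 of all tested contigs were then higher from M6 to M12. From M12 to M18, 14 members in place of 87 and 556 contigs in place of 1789 were higher. The lowest M6 value of a member was 58 counts, and the lowest of all, 12 counts, was TC_200 in C6-5 alone.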
